A study of Homo sapiens with 13 samples.

Results

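The GATA factors examined here were GATA2, GATA3, GATA4 and GATA6, together with the long noncoding RNAs GATA2-AS1 and GATA3-AS1 that are transcribed from the opposite strand at the GATA2 and GATA3 loci. The 6 genes were chosen by name, and all 6 were present in both deposited count tables, among 61546 entries in each table. RNA came from GFP::SMAD4 RUES2 cells, an engineered human embryonic stem cell line in which the signal transducer SMAD4 carries a fluorescent tag, grown in mTeSR1 medium. In the time series, cells received 100 ng/mL BMP4 with 5 μM IWP2, a blocker of Wnt secretion, and a ROCK inhibitor (RI), and were collected at 0 h (2 libraries) and at 4, 12, 20, 28 and 42 h (1 library each). The 0 h labels name the same treatment and were read as cells collected when it began. In the dose response, cells were collected at 5 h after BMP4, IWP2 and RI with LDN-193189 (LDN), which blocks the type I BMP receptor kinases, at 0, 10, 30, 100 or 300 nM, or untreated in mTeSR1 (1 library each). Per the study, the sequencing was not repeated. Total RNA depleted of ribosomal RNA was sequenced in the time series and polyA RNA in the dose response, so levels were compared within each experiment.

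GATA factors are zinc finger transcription factors that bind the DNA letters GATA through a pair of conserved fingers. GATA2 and GATA3 act in blood progenitors, in trophoblast and in surface ectoderm, where GATA3 is also a widely used marker of cells that respond to BMP, and in T cells GATA3 directs helper cell fate. GATA4 and GATA6 are best known for heart and endoderm. BMP ligands bind receptor kinases that phosphorylate SMAD1, SMAD5 and SMAD9, which then enter the nucleus with SMAD4 and switch genes on, among them the ID genes and the feedback inhibitors SMAD6 and SMAD7.

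Both antisense RNAs lie close to the start of their sense gene on GRCh38, the build the authors mapped to. In the GENCODE annotation GATA3 spans chr10:8045378-8075198 on the plus strand, and GATA3-AS1 spans chr10:8050450-8053484 on the minus strand, with its start 1204 bases before the main GATA3 start and no exon base shared with GATA3. GATA2 spans chr3:128479427-128493201 on the minus strand. GATA2-AS1 spans chr3:128489212-128502970 on the plus strand, begins inside the GATA2 gene and shares 78 exon bases with GATA2, which is 2.69% of its own exon bases. Whether the counting used strand is not given in the sources used here, so reads from the shared exon bases of GATA2 and GATA2-AS1 could not be told apart. The spans of GATA2 and GATA2-AS1 overlap by 3990 bases and those of GATA3 and GATA3-AS1 by 3035 bases, introns included, and without strand a read from unspliced RNA of one gene there could also be counted for the other.

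The sequence just before the starts of the 4 genes that passed the dose test described further on is shown because these genes moved together with BMP signaling. It was read from the RefSeq promoter windows (250 bases before to 50 after each start, GRCh38.p14), 5′ to 3′ on the strand of the gene, without bases of annotated exons. Capitals mark GGCGCC and CAGAC or its reverse complement GTCTG, letters that SMAD proteins can bind.
GATA3, main start, chr10:8054438-8054687, plus strand: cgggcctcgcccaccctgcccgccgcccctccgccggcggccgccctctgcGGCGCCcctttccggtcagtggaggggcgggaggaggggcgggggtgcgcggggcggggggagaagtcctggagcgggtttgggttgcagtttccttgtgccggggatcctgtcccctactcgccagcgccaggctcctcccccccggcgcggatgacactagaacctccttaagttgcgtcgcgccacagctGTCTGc
GATA3-AS1, chr10:8053485-8053603, minus strand: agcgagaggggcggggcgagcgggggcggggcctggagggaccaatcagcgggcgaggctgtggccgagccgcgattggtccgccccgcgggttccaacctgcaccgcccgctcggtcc
GATA2, main start, chr3:128493202-128493451, minus strand: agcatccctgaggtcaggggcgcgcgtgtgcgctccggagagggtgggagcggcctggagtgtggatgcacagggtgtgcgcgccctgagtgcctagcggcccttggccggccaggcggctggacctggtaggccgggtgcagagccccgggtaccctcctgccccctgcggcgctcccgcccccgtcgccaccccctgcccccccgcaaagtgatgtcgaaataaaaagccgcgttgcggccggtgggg
GATA2, second start, chr3:128488531-128488780, minus strand: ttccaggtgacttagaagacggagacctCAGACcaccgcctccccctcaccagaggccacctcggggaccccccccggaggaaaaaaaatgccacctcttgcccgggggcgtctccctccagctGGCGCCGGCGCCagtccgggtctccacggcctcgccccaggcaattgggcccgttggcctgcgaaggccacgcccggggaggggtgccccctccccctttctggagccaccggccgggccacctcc
GATA2-AS1, chr3:128489035-128489202, plus strand: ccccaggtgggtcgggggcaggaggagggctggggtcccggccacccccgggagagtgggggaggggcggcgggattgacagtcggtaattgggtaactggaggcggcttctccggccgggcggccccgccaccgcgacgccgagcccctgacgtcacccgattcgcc

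The stretch printed for the main GATA3 start held 1 GGCGCC and 1 GTCTG. Those for GATA3-AS1, GATA2-AS1 and the main GATA2 start held neither. That for the second GATA2 start held a tandem pair of GGCGCC and 1 CAGAC. Both GATA2 starts with a RefSeq window are printed, but only the main start of GATA3. Of the other GATA3 stretches, chr10:8045083-8045332 held GGCGCC, chr10:8060207-8060456 held CAGAC and chr10:8049604-8049853 held neither. The RefSeq window of GATA2-AS1 is for a start at chr3:128489203, not for its main start in GENCODE at chr3:128489777, which was not examined. Over whole windows, exon bases included, GGCGCC was found 2 times and CAGAC or GTCTG 1 time for the main starts of both GATA3 and GATA3-AS1. RefSeq gave 13 windows for 5 of the 6 genes, some of them overlapping, and none for GATA4. The GATA3 window chr10:8053391-8053690 and the GATA3-AS1 windows, which begin at 8053373, 8053400 and 8053435, cover nearly the same bases. Each of these windows held GGCGCC 2 times, so their matches are not separate from one another. GGCGCC was found in 8 of the 13 windows, against 19.2% of all 35116 RefSeq windows, and CAGAC on either strand in 6 of 13, against 45.3%. The GATA factor letters AGATAA or TTATCT were in 0 of the 13, against 10.3% of all windows. These matches describe the letters and were not tested as binding sites.

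Library totals were 37957385 to 71333471 counts in the time series and 15600931 to 33989998 in the dose response, so that 3 counts, taken as the floor, equal 0.0421 to 0.079 and 0.0883 to 0.192 counts for each 1000000 counts of the library (CPM), respectively. Intervals below cover counting error only. They are exact 95% intervals, apart from those of the onset times, which are described with the times. The fluorescent tag sequence was counted in all 13 libraries. The 7 pluripotency markers summed to 5978 and 6421 CPM at 0 h and to 3069 CPM at 42 h, and the 8 amnion markers to 25.8 and 29.4 CPM at 0 h and 6560 CPM at 42 h, with none of these 15 genes at 0 counts in any time-series library. LIN28A (mean 2992 CPM at 0 h, 1806 CPM at 42 h) and POU5F1 (1362 and 1145 CPM) made up most of the pluripotency sum. The other 5 fell much further. NANOG went from a mean of 131 to 1.08 CPM, SOX2 from 382 to 11.6 CPM and PRDM14 from 58.8 to 0.196 CPM. TDGF1 went from 595 to 11.7 CPM and DPPA4 from 680 to 93.6 CPM. The summed levels of the marker lists for trophoblast (7 genes), endoderm (6) and blood (6) lay between 0.769 and 5.9 CPM in all 13 libraries. Up to 5 trophoblast, 4 blood and 3 endoderm markers were at 0 counts in a library. Within this range the endoderm sum went from 4.35 and 4.02 CPM at 0 h to 1.28 CPM at 4 h, where FOXA2 was lower. It was 5.90 CPM untreated and 1.60 CPM with BMP4 and no LDN. HLA-G, of the trophoblast list, was at 2.81 CPM at 42 h, against 0.790 and 1.11 CPM at 0 h. The 6 heart muscle markers summed to 7.93 and 7.12 CPM at 0 h, 21.6 CPM at 28 h and 23.5 CPM at 42 h. The 5 primitive streak and mesoderm markers summed to at most 3.19 CPM at 0 h, 8.51 CPM at 28 h and 7.88 CPM at 42 h. Both sums were higher at the late times, as the 6 GATA genes were, but each rested mostly on a single gene at 42 h. These were NKX2-5 (17.3 CPM) and TBX6 (6.16 CPM). At 42 h MYH6, MYL7 and NPPA (2.52, 2.17 and 0.245 CPM) were above both 0 h libraries, while TNNT2 (0.735 CPM) and ACTN2 (0.523 CPM) were below both. At the same time MESP1 was at 0.311 CPM, and TBXT, MIXL1 and EOMES lay between their levels in the 0 h libraries. Before that EOMES had been higher, at 1.39, 2.72, 3.52 and 1.81 CPM at 4, 12, 20 and 28 h, against 0.211 and 0.308 CPM at 0 h. The untreated library had the lowest total and, like 0 h replicate 1, a high mitochondrial share (7.90% and 7.60%, against 2.01 to 4.49% in the others). Their part in the results below was not tested. RNA was taken from whole cultures, in which more cells with a transcript and more transcript per cell cannot be told apart.

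The time series asked when each factor came on. GATA2 and GATA3 were higher at 4 h than at 0 h and continued to rise until 42 h. Their antisense RNAs did the same at lower levels, and GATA4 and GATA6 rose as well but stayed near 2 and 6 CPM at most. GATA2 was at 1.16 and 0.939 CPM in the 0 h libraries, then 99.3, 167, 321, 407 and 462 CPM at 4, 12, 20, 28 and 42 h. GATA3 was at 0.158 and 0.196 CPM at 0 h, then 45.6, 172, 270, 296 and 322 CPM. Each later library was above both 0 h libraries and above the library before it. At 4 h GATA2 was 97.8-fold (81.0 to 119) and GATA3 249-fold (161 to 409) above the pooled 0 h libraries, and by 42 h the folds were 455 (378 to 553) and 1758 (1138 to 2879).

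**Figure D1:**
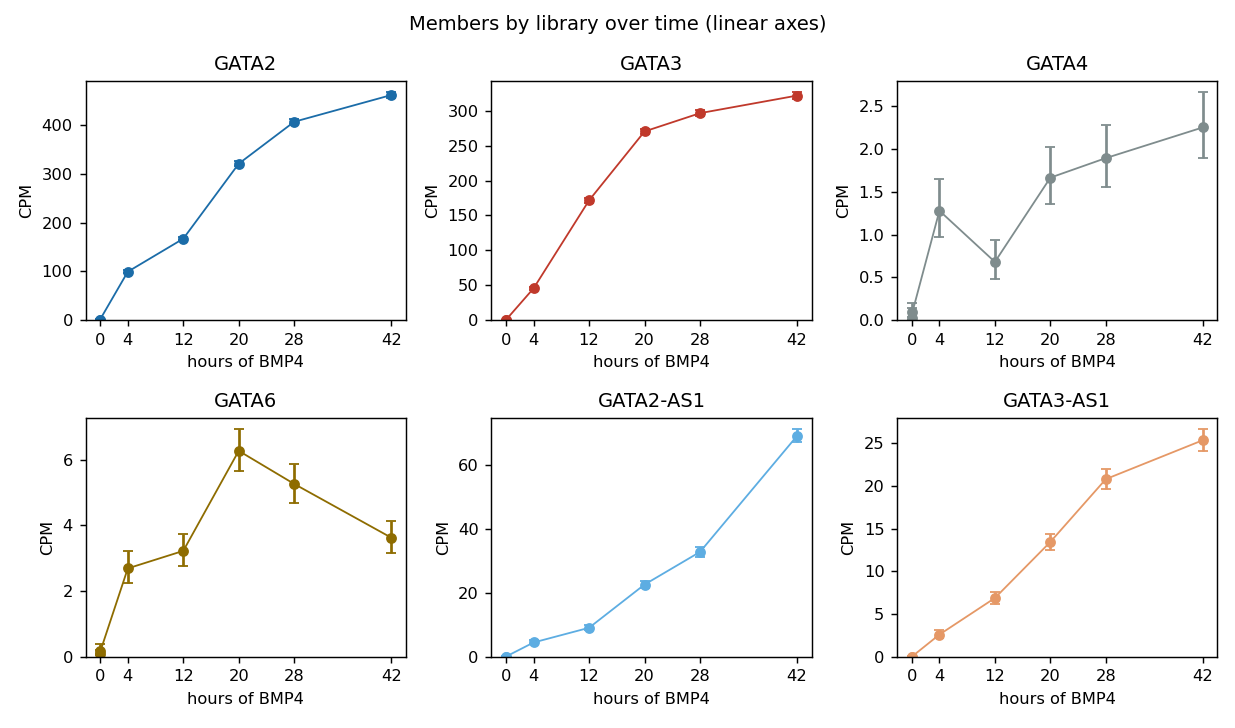
Level of each gene in every time-series library in CPM (linear axes, 1 panel a gene) against hours of BMP4, with exact 95% counting intervals as bars and a line through the mean of the 2 libraries at 0 h and the single later libraries. GATA2, GATA3 and both antisense RNAs climb at every time point to 42 h, GATA4 dips at 12 h to 0.681 CPM, and GATA6 peaks at 20 h at 6.27 CPM.

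The antisense RNAs were at or near 0 counts before BMP4. GATA2-AS1 had 1 and 6 counts at 0 h and 203, 507, 1370, 1939 and 4231 counts at 4, 12, 20, 28 and 42 h, or 4.48, 9.08, 22.6, 32.8 and 69.1 CPM. GATA3-AS1 had 0 counts in both 0 h libraries and 118, 384, 815, 1229 and 1552 counts later, or 2.60, 6.88, 13.5, 20.8 and 25.4 CPM. Like their sense genes, both were higher in every later library than in the one before. GATA2-AS1 was 69.9-fold (33.3 to 176) above 0 h at 4 h and 1079-fold (523 to 2687) at 42 h. GATA3-AS1 was at least 94.8-fold above 0 h at 4 h and at least 924-fold at 42 h, against the floor of 3 counts over both 0 h libraries.

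GATA4 (chr8:11676959-11760002, plus strand), a heart and endoderm factor, was counted only 1 and 7 times at 0 h and 58, 38, 101, 112 and 138 times at the later times, or 1.28, 0.681, 1.67, 1.90 and 2.26 CPM. Its 12 h level was 0.532 times the 4 h level (0.344 to 0.815), so the dip was larger than counting error, although no replicate of either time exists. GATA6 (chr18:22169589-22202528, plus strand), which acts in the same tissues, had 7 counts in each 0 h library and then 122, 180, 380, 311 and 222, or 2.69, 3.22, 6.27, 5.26 and 3.63 CPM. It was the only one of the 6 with its highest level before 42 h, and its 42 h level was 0.689 times the 28 h level (0.578 to 0.821). At 4 h GATA4 was 17.5-fold (8.31 to 42.4) and GATA6 21.0-fold (12.1 to 39.6) above 0 h.

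Each time was then tested against 0 h by edgeR's quasi-likelihood test over the 15976 genes whose mean reached 1 CPM. All but GATA2 were below 1 CPM in both 0 h libraries, so they passed this filter only through the later times. A rise was thus built in for them. The number called and the median below can therefore not be weighed against those of all genes. All 6 were called higher at 4 h (largest adjusted p 9.63e-09, GATA4), where 4.39% of all genes were called higher, and all 6 at 12 h (largest adjusted p 3.71e-05, GATA4) against 7.04%. The same 6 of 6 were called at 20 h against 12.4%, at 28 h against 13.3% and at 42 h against 19.9%. The fitted log2 change over 0 h at 4 h was 6.50 ± 0.38 (SE) for GATA2, 7.87 ± 0.43 for GATA3, 6.01 ± 0.47 for GATA2-AS1, 4.04 ± 0.63 for GATA4 and 4.25 ± 0.51 for GATA6. Without 0 h replicate 1 or 2 these changes became 5.62 and 7.19 for GATA2-AS1 and 3.60 and 5.39 for GATA4, both of which had 1 count in replicate 1. The median over the 6, with GATA3-AS1 set at its bound, was 6.26 at 4 h and 9.44 at 42 h, beside −0.01 and −0.01 over all genes tested. Only the 0 h pair gives an estimate of error in this fit, and the labels do not say whether the pair came from separate cultures, so these p-values assume that the single later libraries vary as that pair does.

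By the trend test with hours, GATA2-AS1 rose by 0.17 ± 0.04 (log2 per hour, SE, adjusted p = 0.0125) and GATA3-AS1 by 0.16 ± 0.05 (adjusted p = 0.0352). The error of this test is mostly scatter about the line, since each later time had 1 library. Of all genes 19.2% rose, but because of the filter these 2 of 6 cannot be weighed against that share either. The slope of GATA2 was 0.14 (adjusted p = 0.0886), that of GATA3 0.15 (0.125), that of GATA4 0.08 (0.0587) and that of GATA6 0.08 (0.139). With the square root of hours in place of hours all 6 genes were called as rising, and without 0 h replicate 1, 4 h or 28 h GATA3-AS1 was no longer called (adjusted p = 0.0702, 0.061 and 0.0723).

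The order of onset was read from the time at which a gene reached 10% and 50% of its own largest rise above 0 h, by linear interpolation. The order at 10% was GATA4 (0.720 h), GATA6 (0.961 h), GATA2 (1.88 h), GATA3 (2.83 h), GATA3-AS1 (3.90 h) and GATA2-AS1 (8.32 h). GATA4 and GATA6 could not be placed in order, because their counting intervals (0.551 to 0.964 h and 0.798 to 1.17 h) overlapped, while each later gene in this order was separated from the one before it. All these times but that of GATA2-AS1 fall before the first sampled time, so they reflect the 4 h level as a share of the maximum rather than a sampled crossing. The order was the same under each of the 6 alternative settings tried.

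The 50% times, which for all 6 but GATA4 fall between sampled times after 4 h, ordered the genes differently. GATA3 reached 50% at 11.3 h (11.1 to 11.5), before GATA2 at 15.3 h (15.2 to 15.5), since 53.3% of the GATA3 maximum but 36.2% of the GATA2 maximum was present at 12 h. GATA3-AS1 reached 50% at 19.1 h (18.2 to 20.1) and GATA2-AS1 at 28.7 h (28.1 to 29.2). Each antisense RNA thus crossed later than its sense gene, by 7.74 h for GATA3-AS1 and 13.3 h for GATA2-AS1, and these gaps changed by less than 1 h under every alternative tried. GATA6 crossed at 11.7 h (3.99 to 12.995) and GATA4 at 3.60 h (2.76 to 17.5), intervals too wide to place either one, and with TMM scaling the GATA4 crossing moved to 17.3 h.

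**Figure D2:**
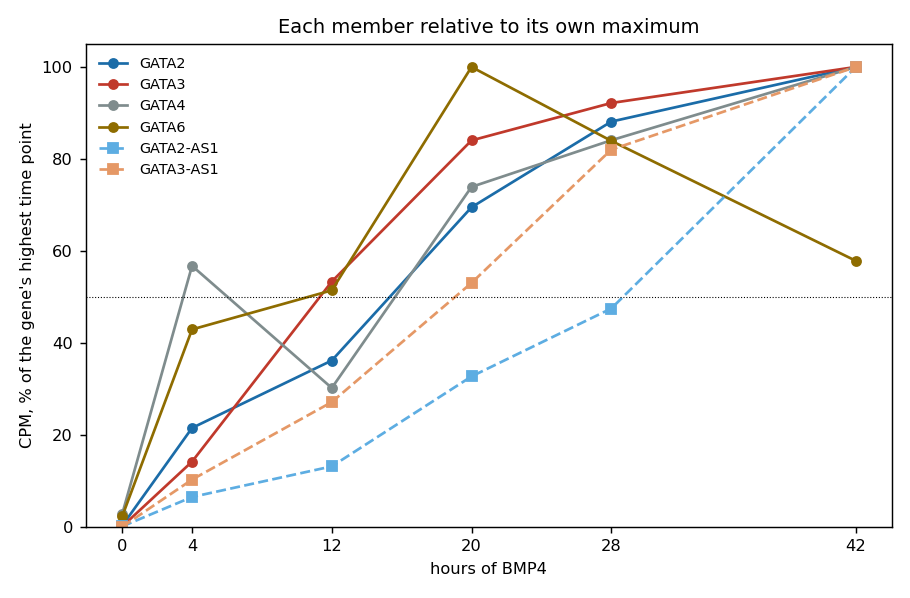
CPM of each gene as a percentage of its own highest time point (linear axis) against hours of BMP4, with circles and solid lines for the factors, squares and broken lines for the antisense RNAs, and a dotted line at 50%. At 12 h GATA3 stands at 53.3%, GATA2 at 36.2%, GATA3-AS1 at 27.1% and GATA2-AS1 at 13.1%.

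Reference genes of the same cells place these times. All 8 BMP reference genes and both early amnion factors were called higher at all 5 times, HAND1 likewise and ISL1 from 12 h on. The direct BMP targets SMAD7 and ID1 reached 50% at 3.07 h (2.97 to 3.17) and 3.50 h (3.47 to 3.54), before the first sampled time. They were followed by ID3 at 4.51 h (4.23 to 4.76), ID4 at 5.45 h (5.19 to 5.69), SMAD6 at 8.26 h (8.16 to 8.36), ID2 at 8.55 h (8.31 to 8.80), BAMBI at 15.1 h (14.985 to 15.3) and the homeobox gene MSX2 at 29.3 h (29.2 to 29.4). The early amnion factors TFAP2A and TFAP2C did so at 12.7 h (12.5 to 12.9) and 19.4 h (19.1 to 19.7), and the late amnion factors ISL1 and HAND1 at 27.1 h (26.8 to 27.4) and 31.2 h (31.1 to 31.2). GATA3 and GATA2 were later than 6 of the 8 reference genes and earlier than MSX2, ISL1 and HAND1. BAMBI was later than GATA3, and its interval overlapped with that of GATA2. GATA2-AS1 lay between ISL1 and HAND1, and its interval (28.1 to 29.2 h) reached that of MSX2.

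From 12 h to 42 h both antisense RNAs gained on their sense genes. From 28 to 42 h GATA2-AS1 rose 2.11-fold (1.996 to 2.22) by counts while GATA2 rose 1.14-fold (1.12 to 1.16). GATA2-AS1 made up 4.32% (3.75 to 4.94) of the summed counts of GATA2-AS1 and GATA2 at 4 h, then 5.16, 6.58 and 7.46% at 12, 20 and 28 h, and 13.02% (12.7 to 13.4) at 42 h. GATA3-AS1 made up 5.40% (4.49 to 6.44) of the summed counts of its pair at 4 h, 3.86% (3.49 to 4.25) at 12 h, then 4.74, 6.56 and 7.31% at 20, 28 and 42 h. The share of GATA2-AS1 was higher in each later library, whereas that of GATA3-AS1 dropped at 12 h before it rose.

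Per length, the deposited FPKM values gave GATA2 as the highest of the GATA factors in all 7 time-series libraries. GATA2 stood at 54.6 FPKM at 4 h and 236 FPKM at 42 h, GATA3 at 20.1 and 145 FPKM, GATA6 at 1.22 and 1.69 FPKM and GATA4 at 0.410 and 0.710 FPKM. GATA2-AS1, at 77.5 FPKM at 42 h, was by then above every factor but GATA2 and GATA3, and GATA3-AS1 reached 18.2 FPKM. Summed over GATA1 to GATA6, the family went from 0.860 and 0.710 FPKM at 0 h to 83.3 FPKM at 4 h and 408 FPKM at 42 h, and GATA2 with GATA3 made up 76.7 and 69.0% of this sum at 0 h and 89.6 to 93.6% from 4 h on. The balance of the pair shifted in time, since GATA2 held 68.5% (67.4 to 69.7) of the summed GATA2 and GATA3 counts at 4 h, 49.3% (48.6 to 50.05) at 12 h and 58.9% (58.5 to 59.4) at 42 h.

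The dose response asked how the level at 5 h depended on BMP receptor activity. All 6 genes had their highest count level without LDN, and GATA2, GATA3, GATA6 and both antisense RNAs were lower in CPM with each added dose up to 100 nM. By FPKM, GATA3-AS1 was at 0.570 with 10 nM and 0.610 with 30 nM, out of that order. GATA2 was at 74.3, 48.1, 28.2, 10.2 and 2.53 CPM with 0, 10, 30, 100 and 300 nM LDN, and at 0.641 CPM untreated. GATA3 was at 73.2, 45.0, 23.0, 8.04 and 1.12 CPM, and at 0.385 CPM untreated. Each dose gave less than the dose before it for both genes, and 300 nM still left GATA2 3.95-fold (2.05 to 8.55) and GATA3 2.90-fold (1.21 to 8.41) above the untreated library by counts. By FPKM, GATA3 was at 0.450 with 300 nM and 0.390 untreated. GATA2-AS1 had 89, 69, 39, 17 and 2 counts and 1 untreated, or 3.10, 2.03, 1.20, 0.547, 0.0603 and 0.0641 CPM. GATA3-AS1 had 89, 38, 28, 15 and 3 counts and 0 untreated, or 3.10, 1.12, 0.861, 0.483, 0.0905 and 0 CPM. At 300 nM both antisense RNAs were at or below the floor.

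**Figure D3:**
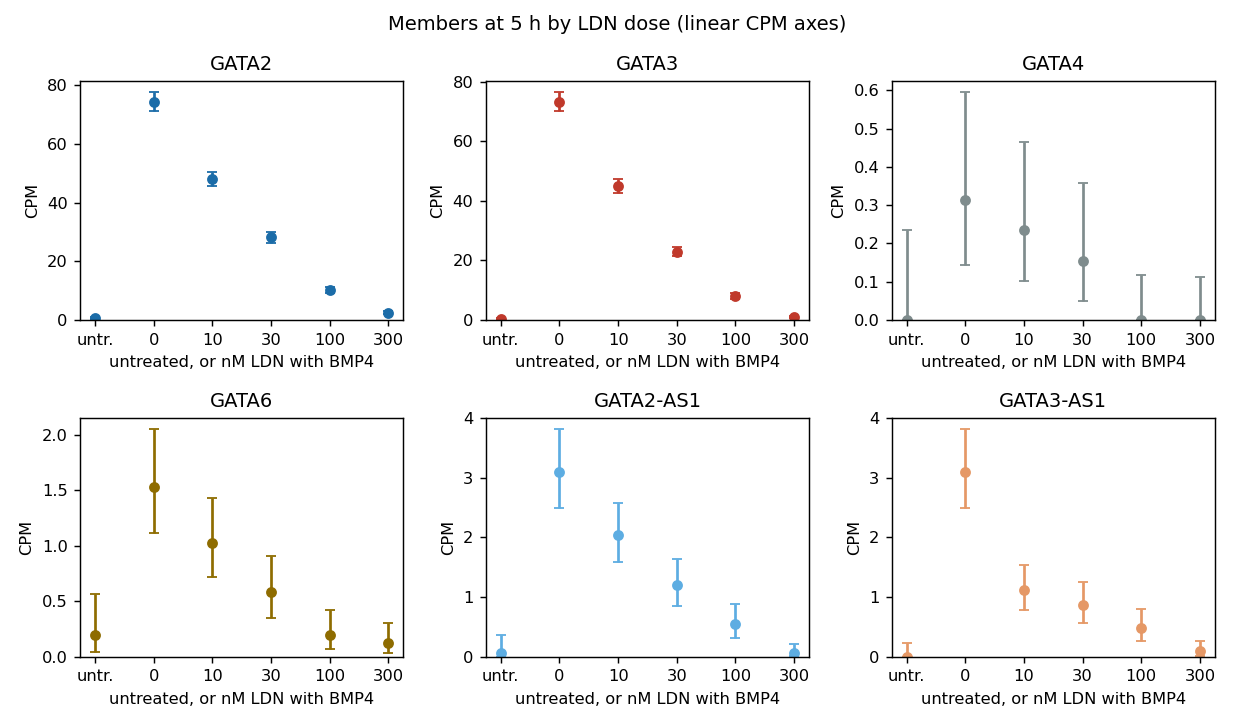
Level of each gene at 5 h in CPM (linear axes, 1 panel a gene) in the untreated library and with 0 to 300 nM LDN added to BMP4, 1 library each, with exact 95% counting intervals as bars. GATA2 and GATA3 step down at every dose from 74.3 and 73.2 CPM, while GATA4 never exceeds 0.313 CPM and its intervals overlap from dose to dose.

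GATA6 had 44, 35, 19, 6 and 4 counts with rising LDN and 3 untreated, or 1.53, 1.03, 0.584, 0.193, 0.121 and 0.192 CPM. The 2 highest doses and the untreated library were thus near the floor. GATA4 had 9, 8, 5, 0 and 0 counts and 0 untreated, and the floor of 3 counts at 300 nM equals 0.0905 CPM. At this depth the GATA4 profile could not be resolved, since with 10 nM the level was 75.2% of that without LDN with an interval from 25.2 to 219%.

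The combined BMP4, IWP2 and RI treatment at 5 h was set against the untreated library, 1 library against 1, with no test, and the parts of the 3 agents cannot be told apart. Without LDN, GATA2 was 116-fold (62.9 to 242) and GATA3 190-fold (87.3 to 519) above untreated, and with FPKM in place of counts the GATA3 fold was 81.9. GATA6 was 7.96-fold (2.55 to 40.1) and GATA2-AS1, with its single untreated count, 48.3-fold (8.45 to 1929) above. GATA3-AS1 was at least 16.1-fold and GATA4 at least 1.63-fold above untreated. GATA2, GATA3 and both antisense RNAs were at least 2-fold higher, and these 4 were the ones whose mean over both libraries reached 1 CPM. All 4 were below 1 CPM untreated, so they passed this mean only through the treated library and had to be higher there. Their count can therefore not be weighed against the 6.34% of all 14893 such genes that were at least 2-fold higher. GATA4 and GATA6 were below that mean.

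Across the 5 libraries with BMP4, the trend with the LDN dose step was tested by edgeR's quasi-likelihood test over 14907 genes. Each dose had 1 library, so the error in this test is scatter about the line, not spread between replicate cultures. GATA4 and GATA6 were below the filter of a mean of 1 CPM, and the 4 genes that passed it all fell, beside 10.9% of all genes. GATA2 and GATA3 were above 1 CPM at every dose. The antisense RNAs passed only through the lower doses, so a fall was largely built in for them. The count of 4 and the median below can therefore not be weighed against all genes. Per step, GATA3 fell by 1.17 ± 0.09 (log2, SE; adjusted p = 1.75e-06), GATA2 by 1.03 ± 0.08 (1.44e-06), GATA3-AS1 by 1.001 ± 0.11 (4.5e-05) and GATA2-AS1 by 0.98 ± 0.12 (0.000105). The median of the 4 was −1.02, beside 0.00 over all genes tested. With no filter GATA4 (−1.19, adjusted p = 0.0221) and GATA6 (−0.91, 2.94e-06) were called as well. Without the library at 0 nM LDN the antisense RNAs had too low a mean to be tested, and 2 genes were called.

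As a share of the level without LDN, after subtracting the untreated level, GATA2 was at 64.4, 37.4, 12.9 and 2.57% with 10, 30, 100 and 300 nM and GATA3 at 61.3, 31.0, 10.5 and 1.01%. GATA2-AS1 followed GATA2 closely, with 64.8, 37.4 and 15.9% at 10, 30 and 100 nM. GATA3-AS1 fell further at the lowest dose, to 36.1% (24.0 to 53.3) of its level without LDN, below the interval of GATA3 there (57.5 to 65.7%). At 30 and 100 nM the shares of GATA3-AS1 were 27.8% (17.5 to 42.9) and 15.6% (8.37 to 27.1), and these intervals overlapped with those of GATA3. The interpolated dose that left 50% was 17.9 nM for GATA2, 15.1 nM for GATA3 and for GATA6, 18.1 nM for GATA2-AS1 and under 10 nM for GATA3-AS1.

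**Figure D4:**
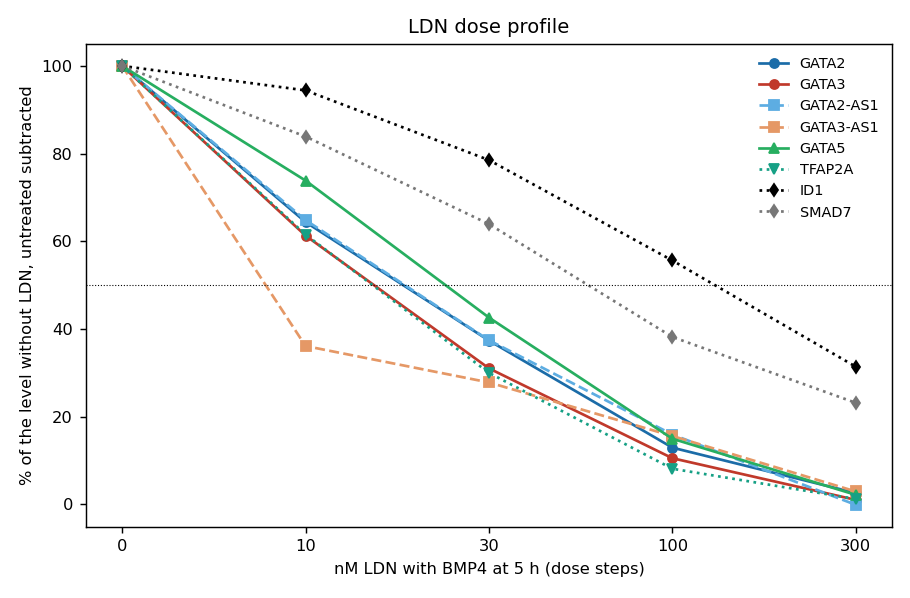
Level at 5 h as a percentage of the level without LDN after subtracting the untreated level (linear axis) against LDN dose in steps, for the 4 genes tested and for GATA5, TFAP2A, ID1 and SMAD7, with a dotted line at 50%. The GATA genes and TFAP2A lie below ID1 and SMAD7 at every dose, with 31.0% of GATA3 and 78.5% of ID1 left at 30 nM.

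Beside the 8 BMP reference genes, which all fell with LDN, the GATA profile was at the sensitive end. ID1 had 50% left at 129 nM, ID3 at 160 nM, ID4 at 66.2 nM, SMAD7 at 57.5 nM, BAMBI at 54.6 nM, ID2 at 47.9 nM and MSX2 at 31.3 nM, whereas SMAD6 was at 14.9 nM. Of the amnion factors, TFAP2A and HAND1 had 50% left at 14.9 and 14.8 nM, TFAP2C at 31.0 nM and ISL1 under 10 nM. ISL1 had only 28 counts without LDN. GATA5 had 50% left at 23.1 nM. The median slope of the 8 reference genes was −0.49 (log2 per step), and among them SMAD6 and MSX2, both at −0.92, were nearest to GATA2 and GATA3. These are descriptions of single libraries, and the differences between genes were not tested.

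**Figure D5:**
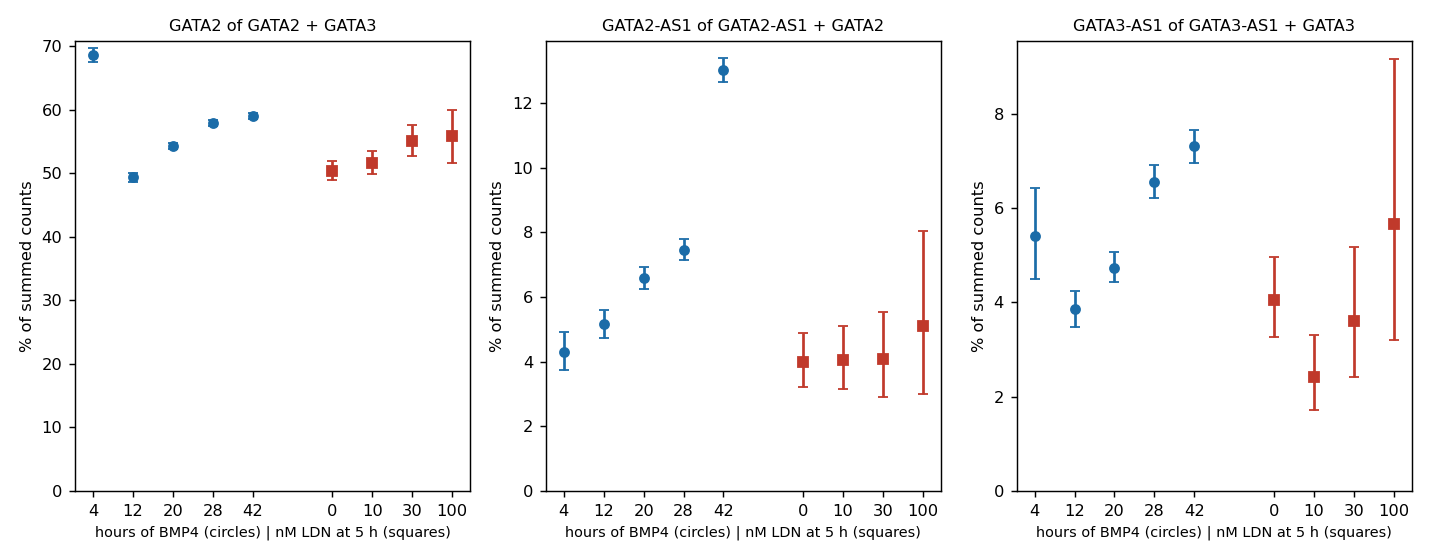
Share of summed counts held by GATA2 in the pair GATA2 and GATA3 and by each antisense RNA in the pair with its sense gene (linear axes from 0) in the time-series libraries (circles) and in the libraries with 0 to 100 nM LDN (squares), with exact 95% intervals as bars. GATA2-AS1 climbs from 4.32% at 4 h to 13.02% at 42 h and stays between 4.00 and 5.11% over the doses drawn, and GATA3-AS1 is lowest with 10 nM LDN at 2.42%.

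Within the pairs, dose changed the antisense share of GATA2-AS1 by less than its counting intervals. It was 4.00% (3.22 to 4.90) without LDN and 4.05, 4.08 and 5.11% with 10, 30 and 100 nM. GATA3-AS1 was at 4.06% (3.27 to 4.97) without LDN, 2.42% (1.72 to 3.31) with 10 nM and 3.61% (2.41 to 5.18) with 30 nM. GATA2 made up 50.4% (48.9 to 51.9) of the summed GATA2 and GATA3 counts without LDN and 69.4% (60.4 to 77.5) with 300 nM.

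Over all 13 libraries, with each experiment centered on its own mean of log2(CPM + 0.5), the genes most like GATA2 in profile among 14563 were TFAP2A (r = 0.997), GATA5 (0.997) and GATA3 (0.997). For GATA3 they were TFAP2A (0.999), GATA5 (0.998) and GATA2 (0.997). For GATA2-AS1 they were the stress response gene GADD45B (0.996), the homeobox gene HMX1 (0.995) and the receptor gene GPR78 (0.992), and its likeness to GATA2 was 0.952. The libraries share depth and treatment within each experiment, so these values describe and were not tested.

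Of the other genes with a GATA-type finger, GATA5, a heart and endoderm factor, went from 0.158 and 0.168 CPM at 0 h to 16.3, 29.6, 60.9, 56.4 and 55.8 CPM, above GATA4 and GATA6 at every later time. It was called higher at all 5 times and fell with LDN by 0.99 ± 0.10 (log2 per step, SE; adjusted p = 1.82e-05). GATA1, the erythroid factor, was at 0.0327 to 0.149 CPM in the time series, and GATA6-AS1 at 0 to 0.132 CPM. TRPS1, a repressor with a GATA finger, was between 9.36 and 14.6 CPM and missed the threshold at each time (adjusted p = 0.999 at 4 h and 0.619 at 42 h).

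Of 9 GATA cofactors, 7 were tested in the time series. ZFPM1, known as FOG1, which binds the GATA N-terminal finger, was at 12.99 and 17.1 CPM at 0 h and 33.6, 84.5, 92.5, 71.1 and 53.5 CPM later, and was called higher at all 5 times. Its relative ZFPM2, known as FOG2, was called from 20 h on and reached 3.61 CPM at 42 h. LMO2, a bridging protein of GATA complexes in blood cells, was called at 4 and 12 h, with 2.38 CPM at 4 h against 0.422 and 0.603 CPM at 0 h, and RUNX1 at 28 and 42 h, with 15.3 CPM at 42 h. With LDN, ZFPM1 fell by 0.22 ± 0.05 (log2 per step; adjusted p = 0.0106), LMO2 by 0.38 ± 0.07 (0.00109) and LMO4 by 0.11 ± 0.02 (0.000211), while TCF3 rose by 0.04 ± 0.01 (0.0399). The median of the 5 cofactors tested with LDN was −0.11.

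Of the 30 genes listed as controlled by GATA factors in other tissues, 14 were tested in the time series. Some of them, such as VGLL1 and TP63, passed the filter only through the late times, so being higher then was built in. The counts and medians below can therefore not be weighed against all genes. Of 8 tested in the trophoblast and epithelial list, 1 (PGF) was called higher at 4 h beside 4.39% of all genes, 2 at 12 h beside 7.04%, 6 at 20 h beside 12.4%, and 7 each at 28 and 42 h beside 13.3 and 19.9%, with a median log2 change of −0.09 at 4 h and 4.22 at 42 h. The keratin KRT7 was at 9.93 and 14.3 CPM at 0 h, 11.9 CPM at 4 h and 503 CPM at 42 h, and the epithelial factor TP63 went from 0.132 and 0.0981 CPM to 70.2 CPM at 42 h. KRT8 and KRT18 have many processed copies in the genome, so their counts are less certain. In the heart list NKX2-5, MYH6 and NPPB were called higher from 20 h, NKX2-5 also at 4 and 12 h, and TNNT2 was called lower from 20 h, out of 4 genes tested. In the endoderm list 1 gene, SOX7, was tested and called higher at 42 h. The others in this list were below the filter and were not tested. Of these, FOXA2 went from a mean of 3.05 CPM at 0 h to 0.154 CPM at 4 h and 0.114 CPM at 42 h. AFP went from a mean of 1.03 CPM at 0 h to 0.0654 CPM at 42 h. SOX17 went the other way, from 0.0676 to 0.441 CPM. HNF4A and TTR had no counts at 0 h and were at 0.049 and 0.196 CPM at 42 h. In the erythroid list 1 gene, KLF1, was tested and missed the threshold at 42 h (adjusted p = 0.0902). In the T cell and adrenergic list none of 3 reached the filter.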

How the data were processed

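Bulk RNA-seq of 13 libraries was used, 7 of the time series and 6 of the dose response. Reads were trimmed by the authors (Cutadapt 2.3), aligned by STAR 2.7.8a to GRCh38 and an ENSEMBL annotation whose release is not given in the sources used here, and counted per gene by RSEM 1.3.3. The deposited count tables hold expected counts, whole numbers as deposited, and the deposited FPKM tables hold values that the authors scaled for gene length and depth. CPM was computed here on library totals. FPKM was used to compare levels between genes and in alternatives.

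Trends with the LDN dose step (0 to 4) and with hours, and each time against 0 h, were tested by the quasi-likelihood method of edgeR 4.0.16 (TMM scaling, two-sided, Benjamini-Hochberg adjustment over all genes tested, threshold 0.05) on genes whose mean reached 1 CPM. DESeq2 1.42.0 and limma 3.58.1 on log2(FPKM + 0.1) served as alternatives, beside other scaling, no filter and each library left out. Fold intervals are exact and conditional on the summed counts. Fits were checked on simulated data. Computation was in R 4.3.3 and Python 3.11.15 with scipy 1.17.1. The 6 genes and all lists were chosen with earlier results of these data known. The genes named are the 6, the other GATA genes, cofactors, BMP reference, amnion and GATA-dependent genes of those lists, and the 3 genes most like each of the 6 whose mean reached 1 CPM in both experiments. The authors' source values of SMAD4 signaling served as the covariate in 1 alternative.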

Additional observations from a re-analysis of the deposited data

How the results depend on the processing

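All 6 genes were called higher at each of the 5 times under every scaling, filter and test tried, and both GATA2 and GATA3 were called as falling with LDN dose under every alternative. No direction of any of the 6 reversed. Without either 0 h replicate the changes against 0 h had no test, since no residual degree of freedom was left. Genes called in all were fewer by limma on log2(FPKM + 0.1) for the dose trend (692 against 1624 that fell) and by DESeq2 for the times (396 against 701 higher at 4 h, 724 against 1125 at 12 h). The number of the 6 called as rising with hours was 2, but 5 by DESeq2, 5 by limma, 4 with no filter and 6 with the square root of hours. The cause was not tested. With 1 library left out, 2 to 4 of the 6 fell with dose, the lowest without LDN 0 nM, where the antisense RNAs were not tested. With 1 library left out, 1 or 2 rose with hours, and 1872 to 3436 genes in all did, against 3072, with the lowest number without 42 h. On library totals the median log2 change of all genes at 42 h was −0.25, against −0.01 with TMM, and 2415 genes were higher and 3963 lower, against 3173 and 2851, while with hours 2121 rose and 4069 fell, against 3072 and 2793. On FPKM, GATA3 with 100 nM LDN was at 15.6% of its level without LDN, against 10.5% by counts, and GATA3-AS1 with 10 nM at 24.2%, against 36.1%. No paired analysis was possible because only 0 h had more than 1 library. GATA4 at 5 h and both antisense RNAs at 300 nM were limited by depth.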
